A study of Homo sapiens with 16 samples.

Results

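Small nucleolar RNA (snoRNA) host transcripts are genes whose introns carry snoRNAs. Here they were taken by symbol: every gene named SNHG plus a number, together with GAS5, ZFAS1 and DANCR, which gave 31 of the 28277 gene symbols in each of the 2 expression tables. RNA had been sequenced from INA6 and JJN3, 2 established human multiple myeloma cell lines that the labels call plasma cells. In each line KANSL2, a subunit of the NSL histone acetyltransferase complex, was repressed by CRISPR interference, in which a catalytically dead Cas9 joined to a KRAB repressor domain is guided to a gene. The 4 groups were INA6 with KANSL2 knockdown (KANSL2KD), INA6 with a nontargeting guide RNA (nt), JJN3 KANSL2KD and JJN3 nt, with 3 libraries in each. All are labelled untreated. The nt cells, titled nontargeting controls, are guide controls and not unmodified cells. Nothing in the labels ties the replicates to separate cultures, so all p-values measure spread among libraries that could be technical. Another 4 libraries of JJN3 chromatin accessibility were not analysed here.

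In a host gene the snoRNA is cut out of a spliced intron and trimmed, while the spliced exons remain as a long RNA. Box C/D snoRNAs (symbols SNORD) guide methylation of ribosomal RNA and H/ACA snoRNAs (SNORA) guide its pseudouridylation, and relatives in Cajal bodies (SCARNA) guide changes of spliceosomal RNAs. Several of these host RNAs, GAS5 the best known, begin with a run of pyrimidines as ribosomal protein mRNAs do (a terminal oligopyrimidine, or TOP, start), and their short open reading frames make them targets of nonsense-mediated decay when they are translated. Many are studied in cancer cells, since ribosome production follows growth.

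The values are the authors' deposited rlog values, a log2 scale on which counts are scaled between the libraries of 1 line and shrunk towards the gene's mean. A difference is the KANSL2KD mean minus the nt mean, so 1 unit is a doubling, and shrinkage makes differences of weakly covered genes too small. Levels are not per length and the 2 tables were normalised separately, so levels were compared neither between genes nor between lines. Adjusted p-values come from limma over all genes of a line, and a gene was called at an adjusted p below 0.05. Depth per library is unknown, because the tables hold no counts, and in bulk RNA less RNA per cell cannot be told apart from fewer cells that express a gene. The target itself was lower in both lines. In INA6 KANSL2 stood at 7.69 ± 0.0809 in KANSL2KD libraries and at 8.08 ± 0.0757 in nt libraries (SD, n = 3 each), which is 76.4% of nt. In JJN3 it stood at 6.01 ± 0.0435 in KANSL2KD libraries and at 7.23 ± 0.0317 in nt libraries (SD, n = 3 each), which is 43.1% of nt. All 10 plasma cell markers (SDC1, CD38 and others) were tested in each line, with means from 5.03 to 15.27 in INA6 and from 7.59 to 15.88 in JJN3.

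The start sites of 6 host genes show how the family resembles and departs from the TOP pattern. These are 70-base windows around the annotated start, from RefSeq (GRCh38.p14), written 5′ to 3′ on the gene's own strand. Capitals mark a run that opens with C and goes on with at least 4 pyrimidines at the annotated first base. SNHG12 (chr1:28581844-28581913, minus strand), SNHG4 (chr5:139274061-139274130, plus), ZFAS1 (chr20:49278602-49278671, plus) and SNHG5 (chr6:85678704-85678773, minus) have such a run. SNHG3 (chr1:28505903-28505972, plus) and SNHG1 (chr11:62855856-62855925, minus) have none at that base. The start in the promoter table lies 1110 bases inside the gene's outer span for SNHG12 and 464 bases inside it for ZFAS1, and at the outer start for the other 4.
SNHG12: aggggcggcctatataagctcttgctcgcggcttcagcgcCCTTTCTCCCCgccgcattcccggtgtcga
SNHG4: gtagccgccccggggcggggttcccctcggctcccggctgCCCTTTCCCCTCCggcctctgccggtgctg
ZFAS1: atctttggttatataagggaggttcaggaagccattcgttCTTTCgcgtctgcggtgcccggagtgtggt
SNHG5: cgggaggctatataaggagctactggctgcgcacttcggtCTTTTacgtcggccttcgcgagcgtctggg
SNHG3: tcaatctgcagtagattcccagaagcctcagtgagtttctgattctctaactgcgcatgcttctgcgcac
SNHG1: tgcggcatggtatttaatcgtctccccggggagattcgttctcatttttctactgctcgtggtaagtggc

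Of 23 tested host genes with a RefSeq promoter, 6 had the pyrimidine run at the annotated start (SNHG4, SNHG5, SNHG12, SNHG18, SNHG19 and ZFAS1), against 4.07% of all 35116 promoters. With the run allowed to begin within 5 bases of that start, the count was 12 of 23, against 21.1% of all promoters. GAS5, a textbook TOP transcript, had no run by either count at its annotated start. The annotated starts were not checked against a measured start, and a run outside this range is not counted. Over the 300-base promoter windows, read on both strands, CACGTG (the E-box that MYC can bind) was found in 2 of 23 host promoters and in 7.26% of all, TATAAA in 4 and in 11.5% of all, and a core of the ZNF143 motif in 2 (SNHG16 and ZFAS1) and in 0.78% of all. These are letter matches only. The 6 genes with the run at the annotated start did not share a response: SNHG4, SNHG12 and ZFAS1 were called higher in both lines, SNHG5 in JJN3 but not INA6, SNHG18 was called lower in JJN3, and SNHG19 was called in neither.

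In each line most tested host transcripts were called higher after KANSL2 repression, though not always the same ones. Of 23 tested in both lines, 11 were called higher in both. A host was tested where its mean rlog reached 3, which 24 of 31 did in each line. In INA6 15 of the 24 were called higher and 2 lower, against a background of 24.7% of 12511 tested genes called higher and 24% called lower (48.6% in either direction). In JJN3 15 of 24 were called higher and 3 lower, against 25.5% of 12282 tested genes higher and 25.5% lower (51% in either direction). The median difference over the tested hosts was 0.27 in INA6 and 0.17 in JJN3, beside medians near 0 over all tested genes (0.0009 and 0.001). The KANSL2KD and nt libraries did not overlap for 20 of the 24 hosts in INA6, against 55.2% of all tested genes, and for 17 of 24 in JJN3, against 56.1%. Centring each library on its median moved the split over all genes to 3904 higher and 2400 lower in INA6 and to 3768 higher and 2571 lower in JJN3, beside 3084 and 3000, and 3135 and 3129, as deposited. Under that centring the hosts were 18 higher and 1 lower in INA6 and 15 higher and 2 lower in JJN3.

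**Figure D1:**
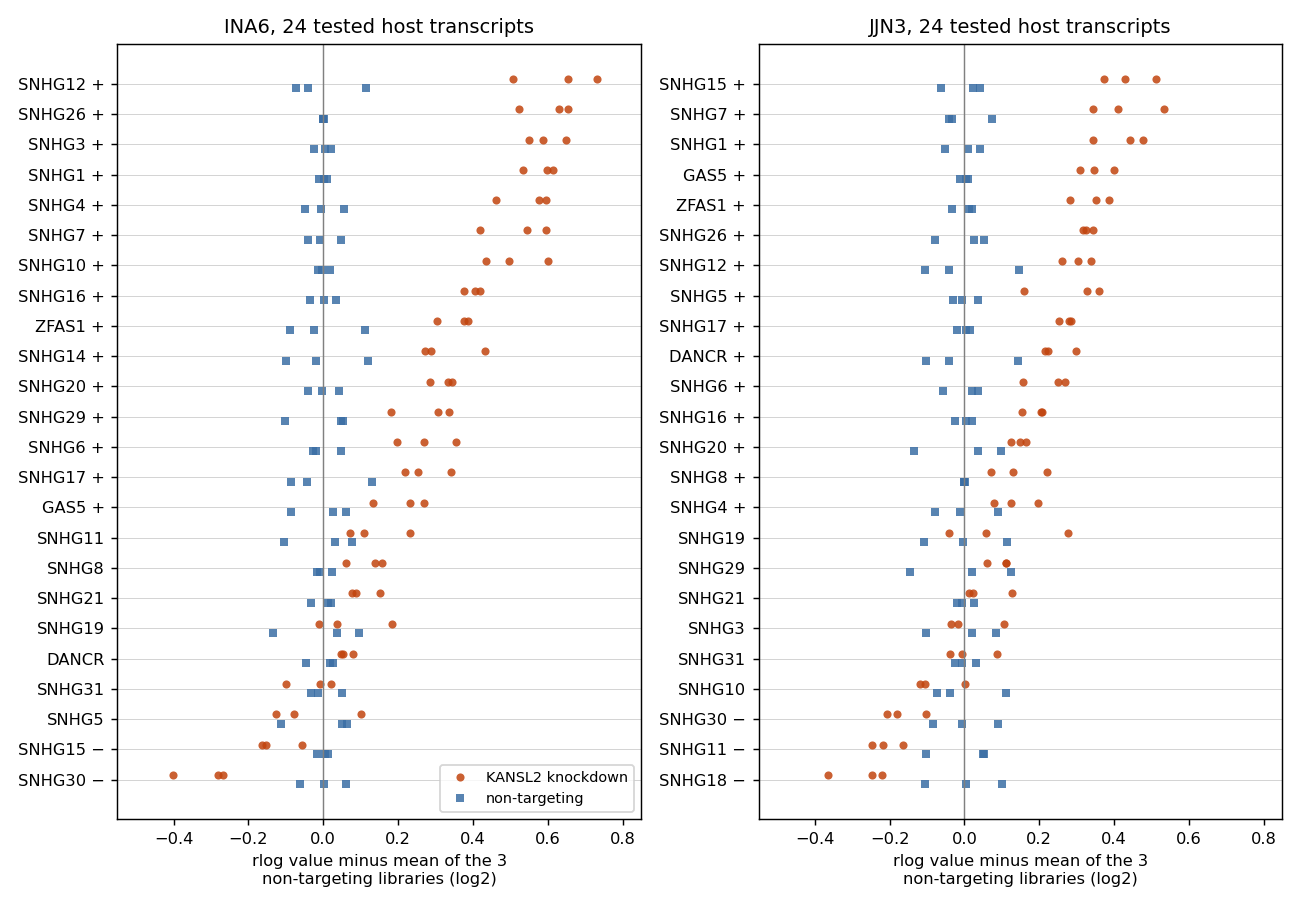
Each library's rlog value minus the mean of the 3 nt libraries of its line (log2, x axis) for every tested host transcript (rows), with KANSL2KD libraries as orange circles and nt libraries as blue squares, and + or − beside a symbol called higher or lower. In INA6 most KANSL2KD points lie above the nt points, up to a mean difference of 0.63 for SNHG12, while SNHG30 lies below in both lines.

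Hosts of H/ACA snoRNAs included the largest rise in INA6. SNHG12, which carries SNORA16A, SNORA44, SNORA61 and SNORD99, stood in INA6 at 7.98, 8.13 and 8.21 in KANSL2KD libraries, against 7.59, 7.43 and 7.40 in nt libraries, a difference of 0.63 ± 0.0681 (SE, adjusted p = 2.17e-07, limma). In JJN3 its values were 10.81, 10.78 and 10.73 in KANSL2KD libraries, against 10.43, 10.62 and 10.37 in nt libraries, a difference of 0.30 ± 0.0488 (SE, adjusted p = 7.07e-06, limma). Its groups did not overlap in either line.

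SNHG3 gave a large response in INA6 and none that passed in JJN3. It carries SNORA73A and SNORA73B, the U17 RNAs, which act in cutting the ribosomal RNA precursor rather than in modifying it. In INA6 SNHG3 stood at 11.66, 11.70 and 11.76 in KANSL2KD libraries, against 11.11, 11.08 and 11.13 in nt libraries, which is 151% of nt (difference 0.60 ± 0.0424 SE, adjusted p = 6.65e-10, limma). In JJN3 it stood at 10.81, 10.69 and 10.67 in KANSL2KD libraries, against 10.60, 10.72 and 10.79 in nt libraries. There the groups overlapped, and the difference of 0.02 had a 95% interval of −0.08 to 0.11.

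SNHG7, SNHG4 and SNHG17 were also called higher in both lines. The first of them, SNHG7, carries SNORA17A and SNORA17B and stood in INA6 at 8.68, 8.86 and 8.81 in KANSL2KD libraries, against 8.26, 8.31 and 8.23 in nt libraries, and in JJN3 at 9.11, 9.18 and 9.30 in KANSL2KD libraries, against 8.84, 8.73 and 8.73 in nt libraries. Its differences of 0.52 ± 0.058 in INA6 and 0.43 ± 0.0515 in JJN3 (SE, n = 3 each) were both called, with no overlap. SNHG4, host of SNORA74A, differed by 0.54 ± 0.0606 in INA6 and by 0.13 ± 0.0548 in JJN3. The JJN3 groups of SNHG4 overlapped (8.13, 8.25 and 8.18 in KANSL2KD libraries, against 7.98, 8.04 and 8.15 in nt libraries), and its call (adjusted p = 0.0422, limma) was lost when any of 4 single libraries was left out (nt 1, nt 2, KANSL2KD 2 or KANSL2KD 3), with adjusted p between 0.0609 and 0.213, and also with no minimum on the mean (adjusted p = 0.0629). SNHG17, which carries the SNORA71 family, differed by 0.27 in each line (SE 0.059 in INA6 and 0.0467 in JJN3), with no overlap.

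SNHG15, host of SNORA9, was the 1 host called in opposite directions. In INA6 it stood at 9.56, 9.57 and 9.67 in KANSL2KD libraries, against 9.71, 9.74 and 9.73 in nt libraries, a small fall to 91.7% of nt (adjusted p = 0.0376, limma). That INA6 call was lost in 8 of 12 alternatives, 5 of them leaving out 1 library (adjusted p from 0.0659 to 0.137 over those 5), while the difference stayed negative in all 12, between −0.16 and −0.09. In JJN3 SNHG15 stood at 8.77, 8.91 and 8.83 in KANSL2KD libraries, against 8.42, 8.44 and 8.34 in nt libraries, the largest rise of any host in that line (0.44 ± 0.0511 SE, adjusted p = 3.13e-08, limma), next to 0.43 for SNHG7. Its groups did not overlap in either line. Calls in opposite directions of this kind were 2.39% of the 11137 genes tested in both lines.

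Among the remaining H/ACA hosts, DANCR and SNHG8 were called higher and SNHG11 lower in JJN3, and none was called in INA6. DANCR, a long RNA named for its action against differentiation and host of SNORA26, was not called in INA6 (difference 0.06, 95% interval −0.03 to 0.15). In JJN3 DANCR stood at 10.30, 10.22 and 10.22 in KANSL2KD libraries, against 9.90, 9.96 and 10.15 in nt libraries, with no overlap and a called difference of 0.25 ± 0.0499 (SE, n = 3 each). SNHG8, host of SNORA24, differed by 0.12 in INA6 (not called, adjusted p = 0.083, limma) and by 0.14 in JJN3 (adjusted p = 0.0178, limma), where the call was lost without KANSL2KD library 3 (adjusted p = 0.1). SNHG11, host of SNORA60 and SNORA71E, differed by 0.14 in INA6, not called, and by −0.21 in JJN3, called lower. In JJN3 its values were 6.62, 6.71 and 6.65 in KANSL2KD libraries, against 6.92, 6.77 and 6.92 in nt libraries, with no overlap, but quantile normalisation ended the call (−0.13, adjusted p = 0.0596, limma). SNHG31, host of SNORA70I, was called in neither line (−0.03 in INA6 and 0.01 in JJN3).

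Among hosts of box C/D snoRNAs, SNHG1, GAS5, ZFAS1, SNHG26, SNHG16 and SNHG6 were called higher in both lines. SNHG1, which carries SNORD22 and the run from SNORD25 to SNORD31, stood in INA6 at 11.17, 11.15 and 11.09 in KANSL2KD libraries, against 10.54, 10.56 and 10.56 in nt libraries, which is 150% of nt (0.58 ± 0.0429 SE, adjusted p = 1.13e-09, limma). In JJN3 SNHG1 stood at 10.58, 10.45 and 10.55 in KANSL2KD libraries, against 10.11, 10.05 and 10.14 in nt libraries, which is 134% of nt (0.42 ± 0.0441 SE, adjusted p = 4.43e-09, limma). All its KANSL2KD libraries lay above all its nt libraries in each line.

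GAS5, named for its build-up in growth-arrested cells and known to bind the glucocorticoid receptor, was higher in both lines. In INA6 it stood at 7.45, 7.41 and 7.31 in KANSL2KD libraries, against 7.20, 7.09 and 7.24 in nt libraries (difference 0.21 ± 0.0645 SE, adjusted p = 0.00979, limma). The INA6 call of GAS5 was lost without nt library 2 (difference 0.17, adjusted p = 0.0657, limma). In JJN3 GAS5 stood at 7.63, 7.68 and 7.59 in KANSL2KD libraries, against 7.29, 7.27 and 7.29 in nt libraries (0.35 ± 0.0545 SE, adjusted p = 3.49e-06, limma). ZFAS1, the host of SNORD12, SNORD12B and SNORD12C and an RNA that associates with ribosomes, differed alike in the 2 lines. It stood in INA6 at 6.07, 6.05 and 5.98 in KANSL2KD libraries, against 5.79, 5.65 and 5.59 in nt libraries, and in JJN3 at 6.55, 6.52 and 6.45 in KANSL2KD libraries, against 6.13, 6.18 and 6.19 in nt libraries. Its differences were 0.36 ± 0.0645 in INA6 and 0.34 ± 0.0556 in JJN3 (SE, n = 3 each), with no overlap.

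SNHG26, host of SNORD93, rose to 7.89, 7.92 and 7.79 in INA6 KANSL2KD libraries, against 7.26 in each of the 3 nt libraries, a difference of 0.60 ± 0.0603, and differed by 0.33 ± 0.0558 in JJN3 (SE, n = 3 each). SNHG16, which carries SNORD1A, SNORD1B and SNORD1C, differed by 0.40 ± 0.0422 in INA6 and by 0.19 ± 0.0392 in JJN3, where quantile normalisation ended the call (0.08, adjusted p = 0.072, limma). SNHG6, host of SNORD87, differed by 0.27 ± 0.063 in INA6 and by 0.23 ± 0.0552 in JJN3. The groups of these 3 genes did not overlap in either line.

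SNHG5 and SNHG29 were each called in 1 line. SNHG5, host of SNORD50A and SNORD50B, stood in JJN3 at 6.81, 6.64 and 6.84 in KANSL2KD libraries, against 6.45, 6.51 and 6.47 in nt libraries (0.28 ± 0.0596 SE, adjusted p = 0.000223, limma). In INA6 its groups overlapped and its difference was −0.03 (95% interval −0.18 to 0.11). SNHG29, host of SNORD49A, SNORD49B and SNORD65, was called higher in INA6 (0.27 ± 0.0619 SE) and not called in JJN3 (0.09 ± 0.0558 SE), where leaving out nt library 3 gave a call (0.16, adjusted p = 0.0289, limma). SNHG19, host of SNORD60, was called in neither line (0.07 in INA6 and 0.10 in JJN3).

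SNHG30, host of SNORD7, was the 1 host called lower in both lines, a combination found in 12.3% of the genes tested in both. In INA6 it stood at 7.42, 7.30 and 7.43 in KANSL2KD libraries, against 7.76, 7.70 and 7.64 in nt libraries, which is 80.2% of nt (adjusted p = 0.000268, limma). In JJN3 SNHG30 stood at 6.96, 7.07 and 6.99 in KANSL2KD libraries, against 7.09, 7.26 and 7.17 in nt libraries, which is 89.3% of nt (adjusted p = 0.021, limma). The groups did not overlap, but the JJN3 call was lost under median centring, under quantile normalisation and without nt library 2, KANSL2KD library 1 or KANSL2KD library 3 (adjusted p from 0.053 to 0.188). SNHG18, host of SNORD123, was tested in JJN3 alone and was lower there, at 5.72, 5.61 and 5.75 in KANSL2KD libraries, against 5.87, 5.98 and 6.07 in nt libraries (−0.28 ± 0.0584 SE, adjusted p = 0.000212, limma).

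SNHG14, the imprinted RNA that runs through the SNORD116 and SNORD115 clusters and lies antisense to UBE3A, was tested in INA6 alone, since it is listed at 0 in every JJN3 library. In INA6 it stood at 8.01, 8.15 and 7.99 in KANSL2KD libraries, against 7.62, 7.70 and 7.84 in nt libraries (0.33 ± 0.0663 SE, adjusted p = 0.000323, limma). UBE3A, the ubiquitin ligase on the other strand, was also called higher there, by 0.21 ± 0.0435. Strandedness of the libraries is not stated in the labels, so reads of the pair cannot be told apart where they overlap. None of the 83 snoRNA genes inside SNHG14 that have a row reached the testing minimum in either line.

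The hosts of Cajal body RNAs differed among themselves. SNHG10, host of SCARNA13, stood in INA6 at 7.21, 7.27 and 7.38 in KANSL2KD libraries, against 6.76, 6.77 and 6.79 in nt libraries, which is 142% of nt (0.51 ± 0.0634 SE, adjusted p = 1.4e-06, limma). In JJN3 SNHG10 stood at 6.31, 6.19 and 6.21 in KANSL2KD libraries, against 6.24, 6.42 and 6.27 in nt libraries, with overlap and a difference of −0.07 (95% interval −0.19 to 0.05). SNHG20, host of SCARNA16, was called higher in both lines, by 0.32 ± 0.0609 in INA6 and 0.15 ± 0.0585 in JJN3. The JJN3 call of SNHG20 was lost without nt library 1 (0.08), KANSL2KD library 1 (0.14) or KANSL2KD library 2 (0.14), with adjusted p from 0.071 to 0.315, and with no minimum on the mean (adjusted p = 0.0576). SNHG21, host of SCARNA15, was called in neither line (0.11 in INA6 and 0.05 in JJN3). The 6 hosts untested in both lines were SNHG9, SNHG22, SNHG25, SNHG27, SNHG28 and SNHG32, whose means lay below 3. A low value does not show absence, since EIF4A1, a translation factor that every cell uses, is also listed at 0 in both tables.

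The response differed between the lines most for SNHG3, SNHG10 and SNHG15. Each host's INA6 difference was set against its JJN3 difference, scaled by their joint standard error, with adjustment over the 11137 genes tested in both lines. Of 23 hosts tested in both, 11 differed between lines, against a background of 30%. Of the 23 hosts, 8 differed with the INA6 difference the higher one, against 15.6% of all genes tested in both. Over all genes, 1733 of the 3342 that differed did so in that direction. The 8 hosts were SNHG10 and SNHG3 by 0.58 each, SNHG4 by 0.41, SNHG11 by 0.35, SNHG12 by 0.33, SNHG26 by 0.27, SNHG16 by 0.21 and SNHG1 by 0.16. The JJN3 difference was the higher one for SNHG15, SNHG5 and DANCR (INA6 minus JJN3 −0.56, −0.32 and −0.19). SNHG1 and DANCR passed narrowly (adjusted p = 0.0402 and 0.0251), and were lost in 11 and 8 of 18 alternatives. Calls agreed in direction for 12 of the 23 hosts. Of the 23, 11 were called higher in both lines, against 14.2% of all genes tested in both. Being called higher in INA6 and uncalled in JJN3 held for SNHG3, SNHG10 and SNHG29, and SNHG29 did not differ between lines by the test (0.18, adjusted p = 0.0946).

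**Figure D2:**
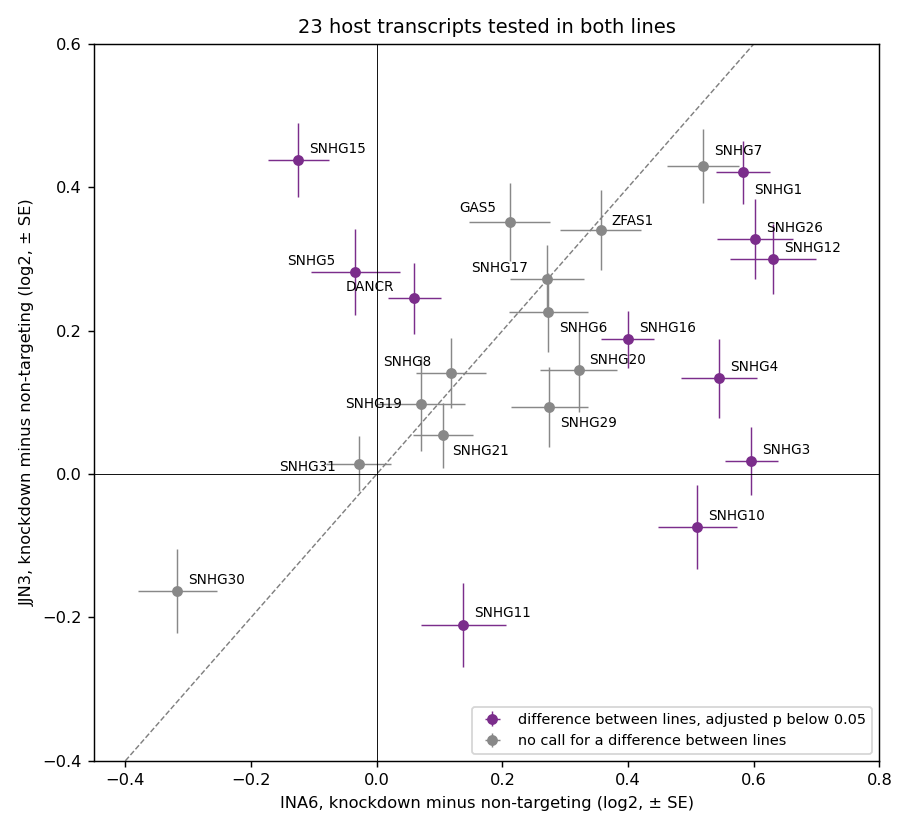
INA6 difference (KANSL2KD minus nt, log2, x axis) against JJN3 difference (y axis) for the 23 host transcripts tested in both lines, with bars of 1 standard error, a dashed line of equal differences, and colour for those that differed between lines. SNHG3 and SNHG10 lie at 0.60 and 0.51 on the INA6 axis and near 0 on the JJN3 axis, and SNHG15 lies at −0.12 and 0.44.

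Most tested snoRNA rows inside the hosts were called higher. RefSeq coordinates placed 146 snoRNA genes that have a row inside a host, of which 17 were tested in INA6 and 18 in JJN3. The tested rows lay in 8 hosts in INA6 and in 9 in JJN3, with 5 and 4 of them in GAS5. Rows that share a host are therefore not separate counts. By limma 13 of 17 were called higher and 0 lower in INA6 (0 lower also at an unadjusted p below 0.05), against 24.7% of all tested genes called higher. In JJN3 16 of 18 were called higher and 0 lower (0 lower at an unadjusted p below 0.05), against 25.5% of all tested genes called higher. Their median differences were 0.18 and 0.17, beside medians near 0 over all genes. Of rows in hosts that were themselves called higher, 12 of 14 were called higher in INA6 and 13 of 15 in JJN3. In JJN3 the 3 tested rows in hosts that were not called were called higher as well. Higher calls there were thus not limited to rows in risen hosts. In INA6 the 1 row in an uncalled host and the 1 row in a host called lower were not called. The INA6 count over all tested rows fell to 8 of 17 without KANSL2KD library 2. Rows of snoRNAs outside these hosts were called higher for 27 and lower for 4 of 83 in INA6, and higher for 26 and lower for 0 of 72 in JJN3 (0 lower at an unadjusted p below 0.05). The RNA was selected by poly(A) tails, which mature snoRNAs lack, so whether these rows read snoRNAs or introns of unspliced hosts was not tested. The snoRNA strand was not checked either, nor whether each snoRNA lies in an intron of its host. SNHG27, a host by symbol, had 0 annotated snoRNAs inside it.

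Within GAS5 the rows did not move as 1. SNORD74 differed by 0.58 ± 0.0536 in JJN3 (6.18, 6.28 and 6.22 in KANSL2KD libraries, against 5.64, 5.63 and 5.67 in nt libraries) and by 0.18 ± 0.0752 in INA6, where its groups overlapped and its call was lost in 8 of 12 alternatives. The difference between lines for SNORD74 was −0.40 (INA6 minus JJN3, adjusted p = 0.000646). SNORD80 differed by 0.41 ± 0.062 in JJN3 and by 0.21 ± 0.0761 in INA6, where the call was lost without nt library 1 (0.12) or KANSL2KD library 1 (0.16). SNORD44, elsewhere in the same gene, differed by 0.00 in INA6 and 0.01 in JJN3. In SNHG12, SNORD99 differed by 0.20 ± 0.0464 in INA6 and 0.44 ± 0.062 in JJN3, and SNORA16A by 0.34 ± 0.0619 and 0.43 ± 0.0562. The INA6 mean of SNORD99 was 3.55, near the testing minimum of 3, where shrinkage makes differences too small. In SNHG1, SNORD31 differed by 0.19 ± 0.0615 in INA6 and 0.28 ± 0.055 in JJN3, where its host differed by 0.58 and 0.42.

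SNHG15 and its SNORA9 kept the same order of lines. SNORA9 differed by −0.11 ± 0.067 in INA6, not called, with overlap, and by 0.17 ± 0.0603 in JJN3, called (adjusted p = 0.0179, limma), though not without nt library 3 (0.10) or KANSL2KD library 1 (0.14). Its difference between lines was −0.28 (INA6 minus JJN3, adjusted p = 0.0154). SNORA9 minus SNHG15 in JJN3 was −2.65, −2.91 and −2.78 in KANSL2KD libraries, against −2.49, −2.46 and −2.60 in nt libraries. These did not overlap, so on the rlog scale SNORA9 rose less than its host there, and in INA6 the same quantity overlapped. The part of rlog shrinkage, which makes differences of weakly covered genes too small, was not tested. The ratio is given without a test. The rows SNORA71A, SNORA71B and SNORA71C of SNHG17 differed by 0.13 to 0.35 in INA6 and by 0.10 to 0.29 in JJN3. They belong to 1 family by name, as do SNORA73A and SNORA73B. Sequences within these families were not compared, so how reads were shared among their rows is uncertain.

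At SNHG3 the host and its snoRNA rows parted in JJN3. SNORA73A stood there at 6.72, 6.64 and 6.65 in KANSL2KD libraries, against 6.21, 6.29 and 6.21 in nt libraries, and SNORA73B at 6.48, 6.48 and 6.39 in KANSL2KD libraries, against 5.97, 5.95 and 5.99 in nt libraries. Taken library by library, SNORA73A minus SNHG3 was −4.09, −4.05 and −4.02 in KANSL2KD libraries, against −4.39, −4.43 and −4.58 in nt libraries, with no overlap. In INA6 the same quantity overlapped (−4.88, −4.68 and −4.78 in KANSL2KD libraries, against −4.80, −4.75 and −4.83 in nt libraries). This ratio was chosen after its values were seen and is given without a test. RCC1, the exchange factor of the nuclear transport GTPase Ran, overlaps SNHG3 on the same strand and was called higher in both lines, by 0.49 ± 0.0401 in INA6 and 0.21 ± 0.0403 in JJN3 (0.11 under quantile normalisation, still called). How the counting shared reads between SNHG3, RCC1 and the snoRNAs was not tested.

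**Figure D3:**
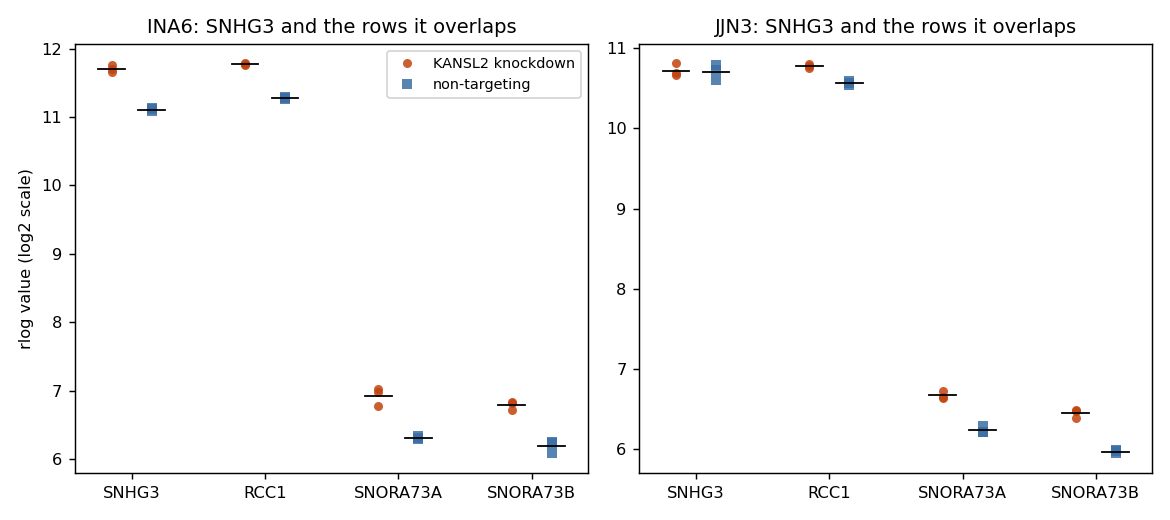
rlog values (log2 scale) of SNHG3, RCC1, SNORA73A and SNORA73B in the 3 KANSL2KD and 3 nt libraries of INA6 and of JJN3, with a line at each mean. The levels are not comparable between genes or between the 2 panels. All 4 rows separate in INA6, and in JJN3 RCC1, SNORA73A and SNORA73B separate while SNHG3 overlaps.

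Genes that share a start region with a host did not always follow it. SLC3A2, the heavy chain of an amino acid transporter, starts 224 bases from SNHG1 in the other direction. In INA6 SLC3A2 stood at 12.01, 12.09 and 12.19 in KANSL2KD libraries, against 12.19, 12.20 and 12.07 in nt libraries (−0.06, not called), where SNHG1 differed by 0.58. In JJN3 SLC3A2 stood at 11.58, 11.72 and 11.73 in KANSL2KD libraries, against 11.15, 11.16 and 11.12 in nt libraries (0.53 ± 0.0421 SE, adjusted p = 2.3e-11, limma), where SNHG1 differed by 0.42. GLRX5, an iron-sulfur cluster protein of mitochondria that starts 178 bases from SNHG10, was called higher in both lines (0.31 ± 0.0482 in INA6 and 0.35 ± 0.0548 in JJN3), whereas SNHG10 was called in INA6 alone. ZBTB37, a zinc finger gene whose start faces and overlaps GAS5, was called lower in both lines, by −0.23 ± 0.0576 in INA6 and −0.36 ± 0.0574 in JJN3. MATR3, a nuclear matrix protein gene that overlaps SNHG4 on its strand, was called higher in both (0.28 ± 0.0453 in INA6 and 0.16 ± 0.041 in JJN3), in JJN3 not under quantile normalisation (0.06). How the counting shared reads between MATR3 and SNHG4 was not tested. SNRPN, which starts 29 bases from SNHG14 on the same strand, was not called in INA6 (−0.01, at a low mean of 3.18), where SNHG14 was called higher. Among other pairs, TRAF7 beside SNHG19 differed by 0.23 in INA6 (called) and −0.04 in JJN3, BARD1 beside SNHG31 by 0.24 (called) and 0.09, and SEC14L1, which overlaps SNHG20, by −0.09 and −0.18 (called). SEMA5A, beside SNHG18, was called higher in JJN3 (0.16 ± 0.05) while SNHG18 was called lower.

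Protein-coding genes that carry a snoRNA were called higher more often than lower, by a smaller margin. RefSeq placed a snoRNA gene inside 543 of them, KANSL2 and RCC1 included. In INA6 153 of 416 tested were called higher and 83 lower, with a median difference of 0.05, and in JJN3 160 of 408 were called higher and 75 lower, with a median of 0.05. Examples called higher in both lines are EIF4G1, the scaffold of translation initiation (0.46 ± 0.041 in INA6 and 0.59 ± 0.0387 in JJN3), PPAN, a ribosome assembly factor (0.72 ± 0.0545 and 0.52 ± 0.0535), and HSPA8, the constitutive heat shock protein (0.59 ± 0.0453 and 0.38 ± 0.0446). PARP16, an enzyme of the endoplasmic reticulum, was called lower in both (−0.54 ± 0.0559 in INA6 and −0.57 ± 0.0565 in JJN3). In INA6 36.8% were called higher, against 24.7% of all tested genes, and in JJN3 39.2%, against 25.5%. Other long noncoding RNA genes had fewer higher calls and about the usual share of lower calls. Of 4647 such genes, 695 in INA6 and 609 in JJN3 reached the testing minimum. The part of weak coverage in these shares was not tested. In INA6 73 of 695 were called higher (10.5%) and 171 lower (24.6%, against 24% of all tested genes), and in JJN3 77 of 609 higher (12.6%) and 156 lower (25.6%, against 25.5%).

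**Figure D4:**
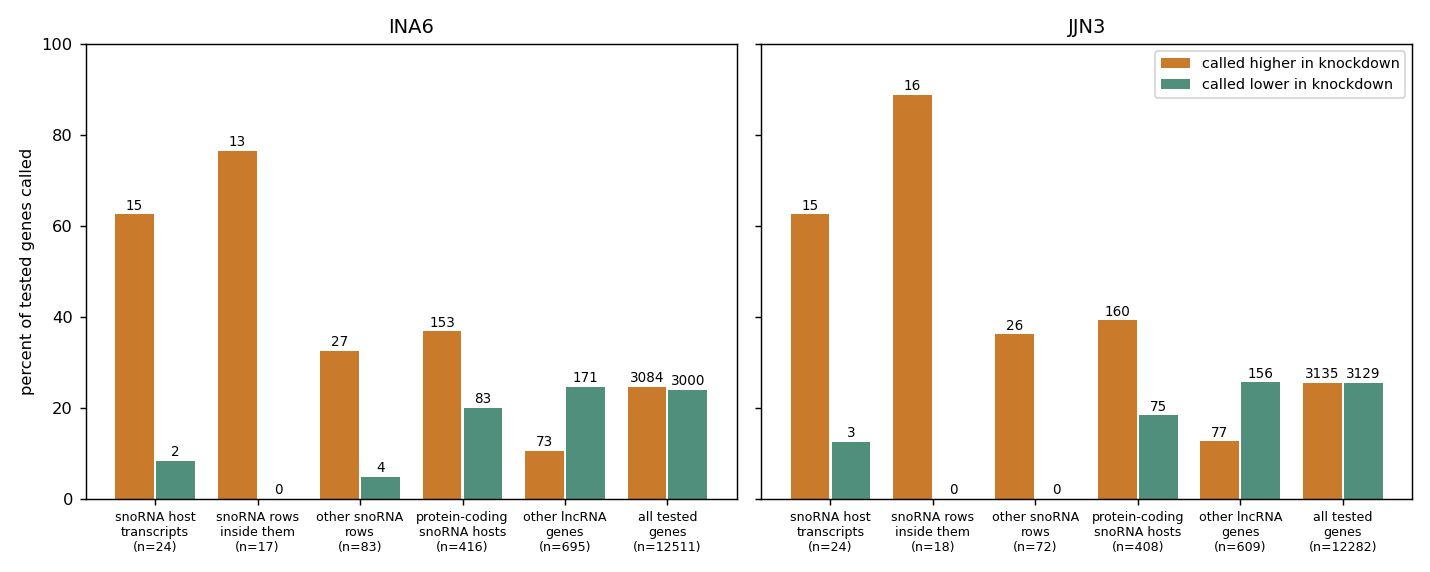
Percent of tested genes called higher and called lower in KANSL2KD (limma, adjusted p below 0.05) in 6 classes for INA6 and JJN3, with the number called above each bar. Host transcripts stand at 62.5% higher in each line, and all tested genes at 24.7% and 25.5%.

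The proteins that bind, build and trim snoRNAs were called higher more often than lower, where 24.7% of all tested genes were called higher in INA6 and 25.5% in JJN3. Of 8 core proteins of the mature particles, 7 were called higher in INA6 and 5 in JJN3, and by limma 0 were called lower in either (0 at an unadjusted p below 0.05). They include NOP56 of box C/D particles (0.40 ± 0.0421 in INA6 and 0.44 ± 0.0398 in JJN3) and DKC1, the pseudouridine synthase of H/ACA particles (0.46 ± 0.04 and 0.29 ± 0.0432), both of which are snoRNA hosts as well. The JJN3 count was 3 under quantile normalisation and without nt library 1. Of 11 tested assembly factors, 7 were called higher in INA6 and 5 in JJN3 with 0 lower (0 at an unadjusted p below 0.05). TGS1 is among them (0.42 ± 0.0514 in INA6 and 0.31 ± 0.043 in JJN3). Of 16 processing and exosome genes, 12 were called higher and 0 lower in INA6 (0 at an unadjusted p below 0.05), and 8 higher and 1 lower in JJN3. Among these is DBR1, which opens the intron lariat (0.35 ± 0.0575 in INA6 and 0.23 ± 0.0513 in JJN3). Without INA6 KANSL2KD library 2 the INA6 counts were 4 assembly factors and 7 processing genes, and the 1 JJN3 processing gene called lower was not called without nt library 1, nt library 2, KANSL2KD library 2 or KANSL2KD library 3.

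Factors of nonsense-mediated decay, the pathway that removes translated host RNAs, were called in either direction about as often as all tested genes (46.7% in each line). The shares of all tested genes called were 48.6% in INA6 and 51% in JJN3, with 24.7% and 25.5% called higher. Of 15 such factors tested, 7 were called higher and 0 lower in INA6 (0 at an unadjusted p below 0.05), 4 of them without KANSL2KD library 2, and 5 were called higher and 2 lower in JJN3. Of the JJN3 pair called lower 1 was lost without nt library 1, 2 or 3 or KANSL2KD library 1 or 2, and quantile normalisation gave 3 higher. UPF1, its central helicase, differed by 0.40 ± 0.0437 in INA6 and 0.20 ± 0.0429 in JJN3, and EIF4A3, of the exon junction complex, by 0.32 ± 0.0703 and 0.37 ± 0.0443. Of 10 regulators of TOP transcripts, 4 were called higher in INA6 (40%) and 6 in JJN3 (60%), with 0 lower (0 at an unadjusted p below 0.05), among them LARP1, which binds the TOP start (0.19 ± 0.0402 and 0.21 ± 0.0387). The JJN3 count was 3 under quantile normalisation. Of 17 other named long noncoding RNAs, 5 were called higher and 5 lower in INA6 and 5 higher and 2 lower in JJN3, so that 29.4% were called higher in each line, near the share of all tested genes. They include MIR17HG, the host of a microRNA cluster (0.75 ± 0.06 in INA6 and 0.58 ± 0.0617 in JJN3), and NEAT1, the RNA of paraspeckles (−0.13 ± 0.0435 and −0.31 ± 0.0454). The higher count fell to 3 in INA6 without nt library 2, and to 3 in JJN3 without nt library 2 or nt library 3.

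Markers of the cells themselves moved too. Of the 10 plasma cell markers, 2 were called higher and 7 lower in INA6, and 6 higher and 1 lower in JJN3. Their mean rlog lay between 11.9 and 12.0 in INA6 KANSL2KD libraries, against 12.3 in each INA6 nt library, and at 11.5 in each JJN3 KANSL2KD library, against 11.3 to 11.4 in JJN3 nt libraries. Markers of other blood and stromal cells were largely below the testing minimum: in INA6 3 of 8 B cell, 2 of 8 T and NK cell, 2 of 8 myeloid and 1 of 8 stromal markers were tested, and none was called by limma (2 higher and 1 lower at an unadjusted p below 0.05). In JJN3 CD79B (−0.60), CD79A (−0.15), CD5 (−0.26) and CD3E (−0.18) were called lower and MS4A1 (0.64) higher, and none of the 3 tested myeloid and stromal markers was called (0 at an unadjusted p below 0.05). The mean over the 8 T and NK cell markers lay between 1.17 and 1.18 in JJN3 KANSL2KD libraries and between 1.19 and 1.25 in JJN3 nt libraries, with CD3D and CD3G at 0 in all of them, and the mean over the 8 B cell markers overlapped between the groups. The part of these markers in the host results was not tested.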

How the data were processed

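Of 12 RNA libraries, 3 per group, samples were grouped by title. The labels' protocols describe capture of poly(A) RNA and random hexamer priming. DESeq2, HTSeq, Bowtie2 and Trim Galore, with build hg38, are named in the submitters' processing notes. Versions, settings, strand use and annotation are not given in the sources used here. The authors deposited rlog values on the log2 scale, 1 table per line, each normalised separately. No counts are held, so depth is unknown and no counting interval was computed.

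A gene was tested where its mean rlog reached 3 (12511 genes in INA6, 12282 in JJN3). Each line was fitted on its own with limma 3.58.1 under R 4.3.3 (lmFit, eBayes with a mean-variance trend, no block), with two-sided tests and Benjamini-Hochberg adjustment over all tested genes, after being tested on simulated data. Differences between lines used summed squared standard errors and summed degrees of freedom. An exact permutation test of 3 against 3 libraries cannot go below 0.1, so no result rests on one. Tables were handled with Python 3.11.15 and pandas 2.3.3.

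Every host is named. SnoRNAs and neighbours were placed by RefSeq coordinates of GRCh38.p14 (27632 of 28277 symbols matched), neighbours being genes that overlap a host or start within 2000 bases in the other direction. The strand of snoRNAs was not in the tables, so the planned limit to the same strand was not applied. From the lists, examples were taken by smallest p among called genes. PARP16, HSPA8, SNORD74 and the SNORA73A ratio were among examples picked after their values were seen. The hosts and gene lists were chosen with earlier results of these data known. Alternatives were median centring, quantile normalisation, no minimum, a minimum of 5, no trend, a replicate block and leaving out each library. For snoRNA rows, gene lists and neighbours they were added after seeing the data.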

Additional observations from a re-analysis of the deposited data

Results flagged for a closer look

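For 11 host transcripts the KANSL2KD minus nt difference itself differed between INA6 and JJN3 by the test of that difference (adjusted p below 0.05 over 11137 genes). Given as INA6 minus JJN3 on the log2 scale, the values were 0.58 for SNHG3, 0.58 for SNHG10, 0.41 for SNHG4, 0.35 for SNHG11, 0.33 for SNHG12, 0.27 for SNHG26, 0.21 for SNHG16, 0.16 for SNHG1, −0.19 for DANCR, −0.32 for SNHG5 and −0.56 for SNHG15. KANSL2 itself differed by −0.39 in INA6 and by −1.21 in JJN3, and its part in these differences was not tested. The line and anything else that set the 2 experiments apart cannot be told apart.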

How the results depend on the processing

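Of 17 host calls in INA6 and 18 in JJN3, 15 and 12 held in every alternative run, and of 11 calls between lines 9 did. No called host changed sign. In INA6 SNHG8, SNHG11 and SNHG21 became called higher under median centring and under quantile normalisation. Single markers of other cell types became called, or stopped being called, in some alternatives. The hosts called lower in INA6 were 1 in place of 2 under median centring, without a minimum and with the replicate block, and 1 to 2 when single libraries were left out. In JJN3 they were 1 in place of 3 under quantile normalisation, with 14 higher, and 2 to 3 when single libraries were left out. The JJN3 median was 0.21 with a minimum of 5, which tests fewer hosts. SnoRNA rows called higher were 5 in INA6 and 8 in JJN3 with a minimum of 5, which tests 7 and 8 rows, and 8 to 11 in INA6 when single libraries were left out. With no minimum 13 JJN3 hosts were called higher, and 1 JJN3 snoRNA row lower. For the other moves the cause was not tested.

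Deviations of same-numbered libraries correlated by −0.18, −0.07 and −0.30 in INA6 and by 0.00, −0.01 and 0.00 in JJN3. Those of libraries with different numbers correlated by −0.07 to 0.24 in INA6 and by −0.06 to 0.06 in JJN3. With 3 libraries per group these values cannot show whether same-numbered libraries were prepared together. With the replicate block 15 hosts were called higher and 1 lower in INA6, 15 higher and 3 lower in JJN3, and 9 differed between lines.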
